A study of Mus musculus with 12 samples.

Results

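Neurexins and neuroligins are cell adhesion proteins that meet across the synaptic cleft. Of the 23893 gene symbols counted in cultured mouse cortical neurons, the rows listed as Nrxn2, Nrxn3, Nlgn1, Nlgn2 and Nlgn3 were taken, 5 genes in all, 2 of them neurexins and 3 of them neuroligins. All 5 were in the table, and every library held at least 40 counts of each. The genes were followed through 4 groups of 3 cultures, which cross deletion of Top1, the gene of DNA topoisomerase 1, with the TOP1 inhibitor topotecan. All groups came from embryonic cortices at E13.5 to E15.5, with the strain labelled C57BL6 and the dams C57BL6/J. Per the study's methods, the mice were Top1 fl/fl, so the group called wild type (WT) also carried the floxed allele. At 3 days in vitro the WT cultures were infected with lentivirus that expresses tdTomato, and the Top1 cKO cultures with lentivirus that expresses tdTomato and CRE, in both cases from the neuron-specific CaMKIIα promoter. At 15 days in vitro, 300 nM topotecan (WT-Topot, Top1 cKO-Topot) or vehicle, 0.003% DMSO (WT-Veh, Top1 cKO-Veh), was added, and RNA was taken 3 days later. Per the labels, around 85 to 90% of cells were transduced, so each library mixed cells with and without the virus.

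Neurexins sit mainly on the presynaptic side and carry binding sites for many postsynaptic partners. Neuroligins are postsynaptic receptors for them. NLGN1 is found mostly at excitatory synapses, NLGN2 at inhibitory synapses and NLGN3 at both. Inside the axon neurexins bind PDZ proteins such as CASK, and inside the dendrite neuroligins bind scaffolds, PSD-95 type proteins at excitatory synapses and gephyrin at inhibitory synapses. Topotecan holds TOP1 on DNA at the strand it has cut, whereas deletion removes the enzyme.

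The 5 genes differ greatly in length. Nrxn3 (chromosome 12, 89961320 to 91573375, plus strand, NCBIM37 assembly with the GENCODE vM1 annotation) spans 1612 kb and ranked 9 by span among 13332 genes averaging 1 CPM or more (CPM, the count scaled to library size). Nlgn1 (chromosome 3, 25330733 to 26032656, minus strand) spans 702 kb and ranked 93. Nrxn2 (chromosome 19, 6418731 to 6544169, plus strand) spans 125 kb, Nlgn3 (chromosome X, 98491178 to 98521302, plus strand) 30.1 kb and Nlgn2 (chromosome 11, 69636624 to 69651286, minus strand) 14.7 kb. All exons of this annotation together made up 0.783% of the span of Nrxn3 and 0.621% of that of Nlgn1. They made up 11.0% of Nrxn2, 36.5% of Nlgn3 and 39.5% of Nlgn2. The counts were taken over RefSeq exons, whose extent may differ. An exon of Slc22a12 on the opposite strand overlaps Nrxn2, and an exon of Med12 on the same strand overlaps Nlgn3. These neighbours had mean levels of 1.03 and 8.37 CPM.

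The RefSeq promoter windows, 250 bases before to 50 bases after a start site on the GRCm38.p6 assembly, show where transcripts of these genes begin. Windows were at hand for Nlgn1, with 2 starts 178 kb apart, for Nlgn2, with 1 start, and for Nrxn3, with 3 starts spread over 1018 kb. The outermost starts of Nrxn3 and the upstream start of Nlgn1, the genes called lower in WT-Topot against WT-Veh, are set beside the start of Nlgn2, a short neuroligin gene. They are written 5′ to 3′ on the strand of the gene, with matches to the GC box GGGCGG in capitals.
Nrxn3, upstream start, chr12:88794254-88794553, plus strand: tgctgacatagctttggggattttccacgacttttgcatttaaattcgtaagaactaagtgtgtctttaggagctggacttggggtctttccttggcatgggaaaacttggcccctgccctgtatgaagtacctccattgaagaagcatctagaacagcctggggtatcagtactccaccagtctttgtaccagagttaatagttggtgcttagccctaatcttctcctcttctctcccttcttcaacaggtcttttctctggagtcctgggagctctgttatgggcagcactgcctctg
Nrxn3, downstream start, chr12:89812233-89812532, plus strand: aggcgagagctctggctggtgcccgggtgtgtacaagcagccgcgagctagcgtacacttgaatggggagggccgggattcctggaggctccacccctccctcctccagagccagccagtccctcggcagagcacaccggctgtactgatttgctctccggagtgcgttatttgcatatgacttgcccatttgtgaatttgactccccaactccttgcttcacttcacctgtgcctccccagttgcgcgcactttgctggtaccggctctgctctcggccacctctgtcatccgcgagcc
Nlgn1, upstream start, chr3:26331860-26332159, minus strand: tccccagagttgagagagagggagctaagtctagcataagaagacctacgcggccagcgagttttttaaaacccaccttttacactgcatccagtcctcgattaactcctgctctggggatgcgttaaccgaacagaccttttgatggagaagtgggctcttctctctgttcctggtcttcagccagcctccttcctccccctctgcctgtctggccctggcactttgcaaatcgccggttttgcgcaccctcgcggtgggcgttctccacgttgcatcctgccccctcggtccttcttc
Nlgn2, chr11:69837735-69838034, minus strand: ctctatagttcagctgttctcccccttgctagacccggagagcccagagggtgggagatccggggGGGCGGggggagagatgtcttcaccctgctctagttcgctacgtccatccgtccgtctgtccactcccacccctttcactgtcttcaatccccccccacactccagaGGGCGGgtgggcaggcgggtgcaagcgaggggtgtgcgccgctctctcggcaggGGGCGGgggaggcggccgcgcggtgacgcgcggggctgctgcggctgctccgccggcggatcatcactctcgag
The Nlgn2 window held 3 GC boxes and 26 CG pairs and was 68.7% G and C. By contrast the upstream Nlgn1 window held 14 CG pairs and no GC box at 55.7% G and C. The downstream Nlgn1 start (chr3:26153937-26154236), not printed, held 6 CG pairs and no GC box at 44.7%. The upstream Nrxn3 window held 2 CG pairs at 47.3%, and the downstream window 16 at 60.7%, neither with a GC box. The middle Nrxn3 start (chr12:88953140-88953439), not printed, held 1 GC box and 6 CG pairs at 47.7%. Among 32851 mouse promoter windows of the same length, 35.7% held a GC box on either strand, and the median window had 7 CG pairs and 52.7% G and C. The letters TGACGTCA of the cAMP response element, present in 1.79% of all windows, did not occur in the 4 printed windows on either strand. Nor did TATAAA, present in 13.6%. The counts are sums over exons of a gene and do not tell transcripts of different starts apart.

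Libraries held 1730164 to 4583777 counts. Top1 itself was at 117 to 163 CPM in the 6 libraries with tdTomato and at 27.1 to 44.0 CPM in the 6 with CRE. The virus labels thus held for each library. Drug labels are not checked by Top1, at a mean of 135 CPM in WT-Veh and 133 CPM in WT-Topot. Summed levels of 8 neuronal markers were 6285 to 8801 CPM over the 12 libraries, and those of 5 markers of excitatory neurons 2216 to 3122 CPM. Markers of microglia were all below a mean of 1 CPM, and no marker of the 7 cell type lists was at 0 in all libraries.

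In WT-Veh cultures, all 5 genes were well expressed. Per kb of annotated exon, the level was 83.9 ± 20.3 CPM (SD, n = 3) for Nlgn2, 37.8 ± 4.18 for Nlgn1, 36.7 ± 7.34 for Nrxn2, 19.6 ± 5.23 for Nrxn3 and 9.97 ± 0.666 for Nlgn3. Nlgn1 and Nrxn2 did not differ beyond their spread. Their order depended on the length used. Per kb of the longest protein-coding transcript, a length chosen after the data were seen, Nrxn2 was at 76.0 ± 15.2 CPM, within the spread of Nlgn2 at 87.2 ± 21.1, whereas Nlgn1 stayed at 37.8, Nrxn3 was at 31.3 ± 8.33 and Nlgn3 at 12.8 ± 0.858. In WT-Topot cultures the order per kb of exon was Nlgn2 (74.7 ± 13.2), Nrxn2 (39.3 ± 5.77), Nlgn3 (13.1 ± 2.19), Nlgn1 (5.11 ± 2.47) and Nrxn3 (1.67 ± 0.387), and per kb of transcript Nrxn2 (81.5 ± 11.95) and Nlgn2 (77.6 ± 13.7) changed places within their spread, with the other 3 genes in the same order.

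**Figure D1:**
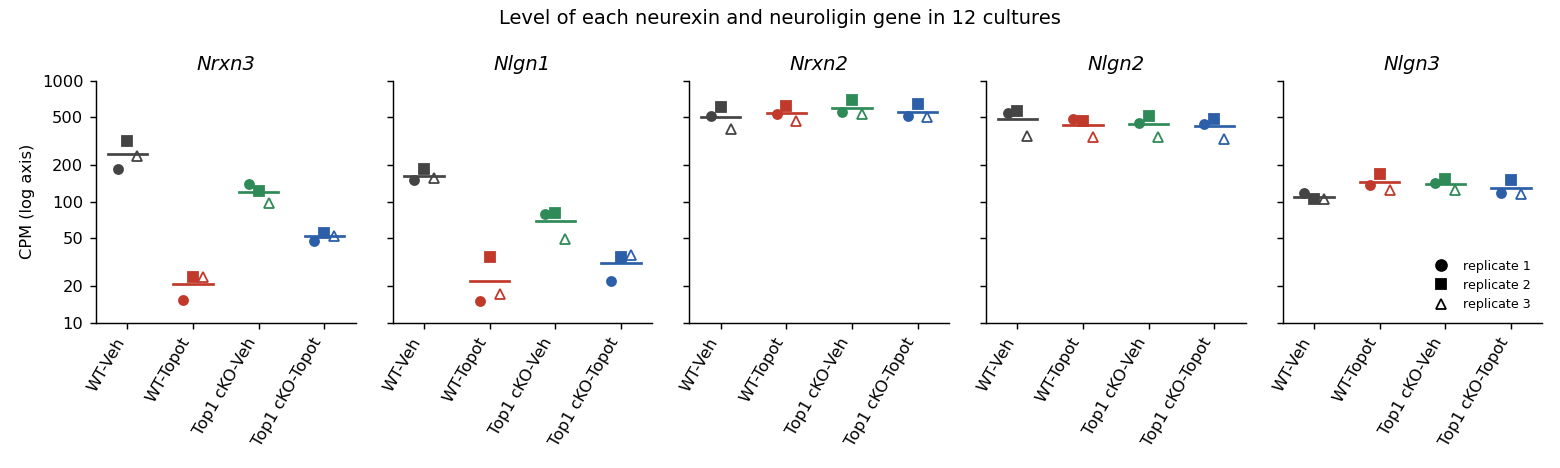
Level of each gene in CPM (log axis) in the 12 cultures, with the group on the x axis, points for libraries shaped by replicate number and lines for group means. The means of Nrxn3 and Nlgn1 were lowest in WT-Topot and lay between WT-Veh and WT-Topot after Top1 deletion, while Nrxn2 and Nlgn2 overlapped in all groups.

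Among the neurexins, Nrxn3 was the gene with the largest differences between groups. Replicates 1, 2 and 3 held 187, 318 and 238 CPM in WT-Veh, and 15.4, 23.8 and 24.0 CPM in WT-Topot. After deletion of Top1 they held 140.0, 123 and 97.7 CPM with vehicle, and 47.8, 55.1 and 52.5 CPM with topotecan. No library of any group overlapped with a library of another group, and the order was WT-Veh, Top1 cKO-Veh, Top1 cKO-Topot and WT-Topot. Among genes averaging 1 CPM or more, 14.5% of 13712 had every Top1 cKO-Topot library below WT-Veh, and 12.3% of 13687 every WT-Topot library below Top1 cKO-Veh. The group means were 248 ± 66.0, 120.4 ± 21.3, 51.8 ± 3.71 and 21.1 ± 4.88 CPM in that order (SD, n = 3).

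Nrxn2 stayed within a narrow range. Vehicle-treated replicates held 509.7, 607 and 404 CPM (WT) and 556, 699 and 536 CPM (Top1 cKO). With topotecan they held 537, 627 and 468 CPM (WT) and 514, 644 and 500.1 CPM (Top1 cKO). Replicate 2 was the highest and replicate 3 the lowest in every group, and the groups overlapped in every comparison. Means were 507 ± 101 and 597 ± 88.9 CPM with vehicle, and 544 ± 79.7 and 553 ± 79.1 CPM with topotecan (SD, n = 3).

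Of the neuroligins, Nlgn1 showed a pattern close to that of Nrxn3. It held 153, 186 and 156 CPM in the WT-Veh replicates and 15.1, 34.6 and 17.1 CPM in WT-Topot, where replicate 2 stood above the others. Top1 cKO-Veh replicates held 79.0, 80.4 and 49.6 CPM and Top1 cKO-Topot replicates 21.9, 35.2 and 36.3 CPM. Unlike Nrxn3, the groups WT-Topot and Top1 cKO-Topot overlapped, whereas the other pairs of groups did not. Mean levels were 165 ± 18.2 CPM for WT-Veh, 69.7 ± 17.4 for Top1 cKO-Veh, 31.1 ± 8.01 for Top1 cKO-Topot and 22.3 ± 10.7 for WT-Topot.

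Nlgn2, the neuroligin of inhibitory synapses, held 543, 563 and 350.2 CPM in the WT-Veh replicates and 484, 467 and 344 in WT-Topot. With Top1 deleted it held 450.1, 517 and 344 CPM under vehicle and 444, 489 and 329 under topotecan. The third replicate was lowest in each group and all groups overlapped. Nlgn3 held 118, 106 and 105 CPM in WT-Veh, below each of the values 138, 171 and 125 in WT-Topot and 143, 154 and 125 in Top1 cKO-Veh. In Top1 cKO-Topot it held 119, 151 and 117 CPM, which overlapped with WT-Veh.

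The first comparison asked what topotecan does where Top1 is intact. In WT-Topot against WT-Veh cultures, Nrxn3 fell by 3.55 ± 0.249 on the log2 scale (SE), 11.7-fold, and Nlgn1 fell by 2.86 ± 0.263, 7.28-fold, with edgeR adjusted p of 3.52e-08 and 9.45e-07. These were the 2 of 5 genes called at a false discovery rate (FDR) of 0.01, where 2.04% of all genes tested were called lower. By replicate number, WT-Topot retained 7.48 to 10.1% of the Nrxn3 level of WT-Veh and 9.87 to 18.6% of the Nlgn1 level. Nrxn2 (log2 fold change 0.10, 95% interval -0.27 to 0.48) and Nlgn2 (-0.16, -0.57 to 0.24) did not pass. Their intervals leave room for changes up to these limits, which are smaller than the falls of Nrxn3 and Nlgn1. Nlgn3 had a log2 fold change of 0.40 ± 0.185 (95% interval 0.02 to 0.79, edgeR adjusted p = 0.349), and its 3 treated libraries lay above the 3 control libraries. Of 13736 genes averaging 1 CPM or more, 12.9% had treated libraries all above and 13.2% all below the controls. The summed level of 6 astrocyte markers was 937 to 2756 CPM in WT-Veh and 314 to 663 CPM in WT-Topot, with 2 of the 6 lower at FDR 0.01 (4 with the block). The 5 interneuron markers summed to 704 to 1528 and 489 to 756 CPM with 0 called (2 lower and 1 higher with the block). The 5 markers of excitatory neurons summed to 2355 to 2622 and 2731 to 3122 CPM, without overlap, with 1 higher (3 with the block), and of 8 neuronal markers 1 was lower (4 lower and 1 higher with the block). Over all genes, 0.682% were called higher without the block, and 5% lower and 3.24% higher with it. The part of these markers in the results was not tested. In a bulk culture, fewer cells of a type and less RNA per cell cannot be told apart.

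With Top1 deleted and no drug, differences in the same genes were smaller. In Top1 cKO-Veh against WT-Veh cultures, the log2 fold change was -1.04 ± 0.217 for Nrxn3 and -1.23 ± 0.213 for Nlgn1, 2.05-fold and 2.35-fold lower. Without the replicate block neither passed FDR 0.01, with edgeR adjusted p of 0.0415 and 0.0137, so 0 of 5 genes were called, and 0.126% of all genes were called lower. With the replicate number as a block both fell, with edgeR adjusted p of 1.74e-13 and 2.17e-16, where 2.95% of all genes were called lower. Such p-values rest mostly on a spread estimated over all genes, not on the 3 pairs of cultures for each gene alone. All 3 libraries of each gene lay below all WT-Veh libraries, as for 10.3% of 13699 genes averaging 1 CPM or more. At an unadjusted p of 0.05, 2084 genes (8.72%) passed without the block. The level relative to the same-numbered WT-Veh culture was 75.0, 38.8 and 41.0% for Nrxn3 and 51.7, 43.3 and 31.8% for Nlgn1. Nlgn3 again lay above WT-Veh in each library (0.36, 95% interval -0.02 to 0.74, edgeR adjusted p = 0.623, as for 9.58% of genes), and Nrxn2 (0.24, -0.15 to 0.62) and Nlgn2 (-0.15, -0.59 to 0.28) were not called. This comparison and the one of WT-Topot share the WT-Veh libraries. Leaving out replicate 1 of either group brought the Nrxn3 value (-1.17 and -1.21) and the Nlgn1 value (-1.34 and -1.29) past the threshold. For Nlgn1, leaving out WT-Veh replicate 3 did so too (-1.27). With each library left out in turn, edgeR adjusted p ranged from 0.00747 to 0.172 for Nrxn3 and from 0.00292 to 0.0686 for Nlgn1.

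Topotecan was also compared with vehicle in the CRE-infected cultures. These still held Top1 transcript, at 25.0% (Top1 cKO-Veh) and 23.5% (Top1 cKO-Topot) of the WT-Veh mean. There Nrxn3 had a log2 fold change of -1.21 ± 0.194 and Nlgn1 of -1.16 ± 0.252, with all treated libraries below all control libraries, as for 6.54% of 13625 genes. Without the block, neither was called (edgeR adjusted p = 0.0321 and 0.124), and 2 of all genes were called lower, 0.00837%, and 0 higher, with 1031 genes (4.32%) at an unadjusted p of 0.05 and 44 lower and 9 higher by DESeq2. With the replicate block both fell (edgeR adjusted p = 1.41e-14 and 1.46e-09), where 1.74% of all genes were called lower. Relative to the same-numbered vehicle culture, Nrxn3 was at 34.1, 44.7 and 53.7% and Nlgn1 at 27.7, 43.8 and 73.1%. Top1 cKO-Veh replicate 3 had the lowest level of both genes in its group. Leaving it out gave -1.33 and -1.34 and brought both past the threshold. With each library left out in turn, edgeR adjusted p ranged from 3.49e-05 to 0.148 for Nrxn3 and from 3.34e-04 to 0.468 for Nlgn1. Nrxn2 (-0.10, 95% interval -0.44 to 0.24), Nlgn2 (-0.04, -0.44 to 0.35) and Nlgn3 (-0.11, -0.49 to 0.26) were not called. The astrocyte markers summed to 871 to 2999 CPM with vehicle and 309 to 1007 CPM with topotecan, ranges that overlap, with 0 of 6 called (4 lower with the block). Whether they bear on the members was not tested.

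Under topotecan, deletion of Top1 was accompanied by more Nrxn3 transcript. Against WT-Topot, Nrxn3 in Top1 cKO-Topot cultures rose by 1.30 ± 0.235 on the log2 scale, 2.45-fold (edgeR adjusted p = 0.00110), and each replicate held 219 to 310.1% of its WT-Topot counterpart. It was the 1 of 5 genes called, where 1.46% of all genes were called higher and 1.03% lower (4.6% and 4.08% with the block). All 3 libraries lay above WT-Topot, as for 13.4% of 13700 genes. Of 177 genes over 500 kb, 31 were called higher (57 with the block). For Nlgn1 the log2 fold change was 0.46 ± 0.295 (95% interval -0.15 to 1.07, edgeR adjusted p = 0.587), with replicates at 145, 102 and 212% of WT-Topot. The intervals for Nrxn2 (-0.31 to 0.35), Nlgn2 (-0.40 to 0.32) and Nlgn3 (-0.54 to 0.20) included 0. Interneuron markers summed to 489 to 756 CPM in WT-Topot and 793 to 1198 CPM in Top1 cKO-Topot. Of these 5, 1 was higher (2 with the block). Excitatory markers summed to 2731 to 3122 and 2216 to 2488 CPM, with 1 of 5 lower (3 with the block). Of 8 neuronal markers 2 were higher (2 higher and 1 lower with the block). Of 6 astrocyte markers 0 were called (1 higher with the block). Their part in the results was not tested.

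The effect of topotecan on Nrxn3 thus differed between WT and Top1 cKO cultures. The interaction, the log2 fold change of topotecan in Top1 cKO minus that in WT, was 2.34 ± 0.310 for Nrxn3 (edgeR adjusted p = 5.52e-04), 1 of 5 genes called where 0.398% of all genes were called higher. For Nlgn1 it was 1.70 ± 0.387, not called without the block (edgeR adjusted p = 0.0296) and called with it (5.84e-06), where 2.44% of all genes were called higher. Without WT-Topot replicate 2, in which Nlgn1 was highest, it was 2.19 and passed (edgeR adjusted p = 0.00193). With each library left out in turn, the edgeR adjusted p for Nlgn1 ranged up to 0.0828. Nlgn3 had an interaction of -0.52 (95% interval -1.03 to -0.01, edgeR adjusted p = 0.584), and Nrxn2 (-0.21, -0.72 to 0.30) and Nlgn2 (0.11, -0.49 to 0.71) were not called.

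Topotecan was also set directly against deletion. In WT-Topot against Top1 cKO-Veh cultures, Nrxn3 was lower by a log2 fold change of -2.52 ± 0.229 (edgeR adjusted p = 1.32e-05) and Nlgn1 by -1.64 ± 0.290 (edgeR adjusted p = 0.00305), where 1.23% of all genes were called lower. The Nlgn1 call was lost without WT-Topot replicate 1 (-1.40), without WT-Topot replicate 3 (-1.47) and without Top1 cKO-Veh replicate 2 (-1.51), and among genes that passed a filter on low counts (-1.65, edgeR adjusted p = 0.0146). With both manipulations against neither, Top1 cKO-Topot against WT-Veh, Nrxn3 fell by 2.23 ± 0.218 and Nlgn1 fell by 2.38 ± 0.226 on the log2 scale (edgeR adjusted p = 1.98e-06 and 1.45e-06), where 1.21% of all genes were called lower. Nrxn2, Nlgn2 and Nlgn3 were not called in either comparison, with log2 fold changes from -0.19 to 0.25.

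Because members are expressed in the same library, their ratios do not depend on how libraries were scaled. The number of Nlgn1 counts per Nlgn3 count was 1.51 (1.29 to 1.76) for WT-Veh, 0.491 (0.398 to 0.553) for Top1 cKO-Veh, 0.243 (0.184 to 0.311) for Top1 cKO-Topot and 0.150 (0.109 to 0.202) for WT-Topot, as the mean and range of 3 libraries. All 4 ranges were apart except those of WT-Topot and Top1 cKO-Topot. Nlgn1 counts per Nlgn2 count were 0.352 (0.281 to 0.446), 0.158 (0.144 to 0.176), 0.0773 (0.0493 to 0.110) and 0.0517 (0.0312 to 0.0741) in the same order. For the neurexins, Nrxn3 counts per Nrxn2 count were 0.493 (0.366 to 0.590), 0.204 (0.177 to 0.252), 0.0945 (0.0857 to 0.105) and 0.0393 (0.0287 to 0.0513), with no overlap between any groups.

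**Figure D2:**
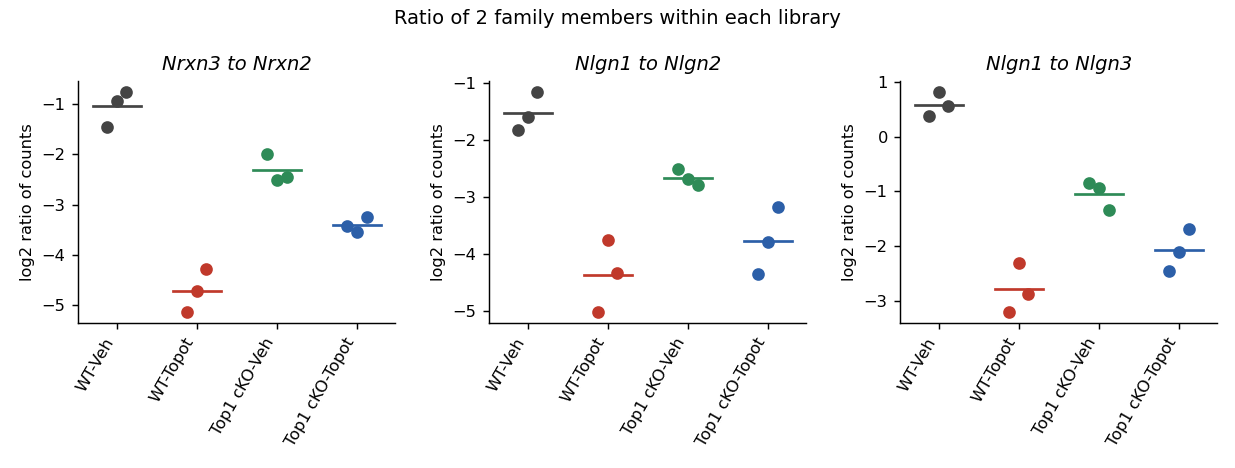
Log2 ratio of counts (y axis) of Nrxn3 to Nrxn2, Nlgn1 to Nlgn2 and Nlgn1 to Nlgn3 within each library, by group, with lines for group means. The ratios were highest in WT-Veh and lowest on average in WT-Topot, with Top1 cKO-Veh and Top1 cKO-Topot between them.

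Per kb of exon, Nlgn1 made up 29.1 ± 4.40% of the summed level of the 3 neuroligins for WT-Veh, 15.2 ± 1.39% for Top1 cKO-Veh, 8.01 ± 2.80% for Top1 cKO-Topot and 5.45 ± 2.08% for WT-Topot. In this order the share of Nlgn2 was 63.2 ± 5.31, 72.4 ± 0.959, 79.1 ± 3.95 and 80.3 ± 3.32%, and that of Nlgn3 7.71 ± 1.31, 12.4 ± 1.23, 12.9 ± 1.16 and 14.2 ± 1.43%. Per kb of exon, Nlgn3 thus exceeded Nlgn1 in WT-Topot and Top1 cKO-Topot. Per kb of the longest transcript it also did in Top1 cKO-Veh, at 15.0 ± 1.44% against 14.3 ± 1.35%, within their spread. Nrxn3 made up 34.8 ± 5.50% of the sum of Nrxn2 and Nrxn3 for WT-Veh, 18.1 ± 2.99% for Top1 cKO-Veh, 9.37 ± 0.871% for Top1 cKO-Topot and 4.12 ± 1.14% for WT-Topot. With the longest transcript as the length the WT-Veh share of Nlgn1 was 27.8 ± 4.19% and that of Nrxn3 29.1 ± 4.97%. A share also moves when only another gene of the sum changes.

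The members were placed among genes of like span. Of 177 genes over 500 kb, 115 (65.0%) were called lower in WT-Topot against WT-Veh, with a median log2 fold change of -2.11, and Nrxn3 ranked 17 and Nlgn1 39 from the lowest. In Top1 cKO-Veh against WT-Veh, the median of these genes was -0.56 and 4.52% were called lower (41.2% with the block), with Nrxn3 at rank 40 and Nlgn1 at rank 21. For topotecan after deletion the median was -0.68, 1.13% were called lower (40.7% with the block), and the ranks were 40 and 44. Both genes therefore lay below the median of very long genes in all 3 comparisons. Nrxn2 belonged to 1840 genes of 100 to 500 kb, with a median of -0.37 in WT-Topot and 13.3% called lower, and ranked 1478 from the lowest. Nlgn3 ranked 4296 of 5400 genes of 20 to 100 kb (median 0.04), and Nlgn2 1529 of 5915 genes of 20 kb or less (median 0.11). For Top1 cKO-Topot against WT-Topot, the very long genes had a median of 0.64, and Nrxn3 ranked 135 and Nlgn1 64 of 177 from the lowest. Of these genes 31 were called higher (57 with the block) and 0 lower (6 with the block). In the interaction their median was 1.26, and 25 were called higher (82 with the block). There Nrxn3 ranked 154 and Nlgn1 130 from the lowest.

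**Figure D3:**
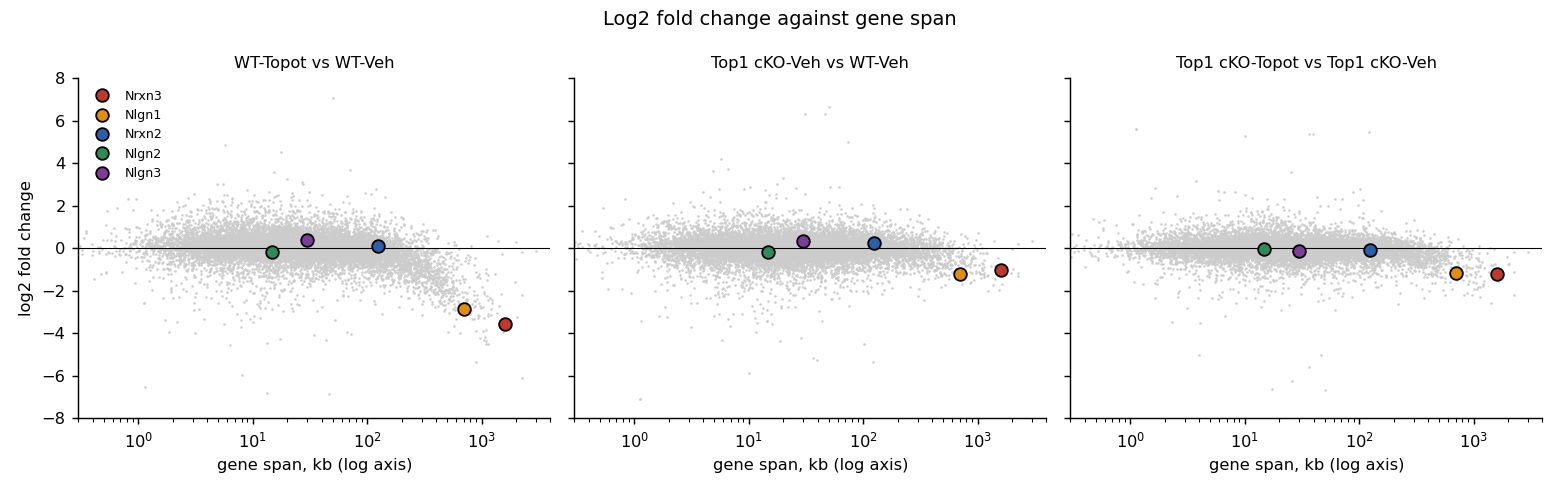
Log2 fold change (y axis) against gene span in kb (log axis) for 13332 genes averaging 1 CPM or more (grey points) and the 5 members (coloured), in 3 comparisons of groups. Nrxn3 and Nlgn1 lie at the long end with values from -3.55 to -1.04, and the 3 shorter members lie near 0.

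To describe the profiles across all 12 libraries, genes averaging 10 CPM or more were ranked by the root mean square difference of their centred log2(CPM + 1) values from those of each member. Of 9506 genes compared, the closest to Nrxn3 were Plcb1 (0.31), Negr1 (0.34) and Opcml (0.35), with a median difference of 1.37 over all genes. The closest to Nlgn1 were Opcml (0.24), Plcb1 (0.26) and March1 (0.28). These 4 genes span 689 to 1135 kb. The difference between Nrxn3 and Nlgn1 was 0.42, and between Nrxn2 and Nlgn3 0.16. Closest to Nrxn2 were Arf3, Gopc and Canx (0.09 to 0.10), to Nlgn2 Tm9sf4, Zfp865 and Coa5 (0.06 to 0.10) and to Nlgn3 Tomm20, Zc3h4 and Tub (0.09 to 0.11), genes of 11.7 to 49.2 kb. The points share libraries and depth, and the values are a description.

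The proteins that neurexins and neuroligins bind, or that process them, were followed as a list of 49 genes in 5 roles. In WT-Topot against WT-Veh cultures 13 fell and 1 rose, where 2.04% of all genes were called lower and 0.682% higher (24 and 4 with the block, where 5% and 3.24% were), with a median log2 fold change of -0.47 against 0 over all genes. All 14 called genes were among the 27 that span more than 100 kb, where the median was -1.06, and 0 of 22 shorter partners were called, with a median of 0.02. The number higher was 3 without WT-Veh replicate 3 and 2 by DESeq2. By edgeR with the block, shorter partners such as Lrrtm1 (0.72, adjusted p = 1.95e-06) and Dlg4 (-0.44, adjusted p = 4.56e-04) passed. Lrrtm1 encodes a postsynaptic neurexin ligand and Dlg4 the scaffold PSD-95.

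Of 21 extracellular partners of neurexins, 3 fell and 0 rose, where 2.04% of all genes were called lower (6 and 3 with the block, where 5% were called lower and 3.24% higher). They were Grid1, which encodes a delta glutamate receptor that binds neurexin through cerebellins (log2 fold change -2.99 ± 0.323, from 42.3 ± 7.68 to 5.25 ± 2.09 CPM), Lphn3, a latrophilin adhesion receptor (-2.95 ± 0.286, from 82.4 ± 15.9 to 10.4 ± 4.90 CPM), and Nxph1, a secreted neurexin ligand (-2.60 ± 0.419, from 56.9 ± 28.4 to 9.15 ± 5.53 CPM). Of 8 intracellular partners of neurexins 3 fell (5 with the block). They were the scaffold Cask (-1.36 ± 0.234) and the Mint adaptors Apba1 (-1.43 ± 0.182) and Apba2 (-1.42 ± 0.192). Of 13 postsynaptic partners of neuroligins 6 fell and 0 rose (11 and 0 with the block), and the largest changes were in Dlgap2, a scaffold-associated protein (-2.42 ± 0.345), Gphn, gephyrin of inhibitory synapses (-2.18 ± 0.222), and Magi2, a scaffold (-2.16 ± 0.283). The edgeR adjusted p-values of these 9 genes were at most 9.20e-04.

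The inhibitors Mdga1 and Mdga2 encode surface proteins that bind neuroligins and block neurexin from binding. They moved in opposite directions. Mdga1 rose by 2.40 ± 0.347 on the log2 scale, from 39.3 ± 31.3 to 207 ± 33.9 CPM, and Mdga2 fell by 2.39 ± 0.226, from 87.7 ± 14.5 to 16.6 ± 1.67 CPM (edgeR adjusted p = 1.48e-04 and 1.30e-06). Leaving out 1 library at a time, the Mdga1 value ranged from 2.08 to 3.28, the highest without WT-Veh replicate 2. Mdga1 spans 142 kb and Mdga2 751 kb. In Top1 cKO-Veh against WT-Veh their log2 fold changes were 0.60 ± 0.390 and -0.54 ± 0.217, called only with the block (edgeR adjusted p = 0.00134 and 0.00741). With topotecan in both groups, Top1 cKO against WT, Mdga1 fell by 1.38 ± 0.183 (edgeR adjusted p = 3.88e-05). Khdrbs1, Khdrbs2 and Khdrbs3, whose products regulate splicing of neurexin transcripts, and Adam10, a protease that cleaves adhesion proteins, were not called in WT-Topot against WT-Veh. With the block, Khdrbs3 was (-0.82, edgeR adjusted p = 5.11e-06).

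**Figure D4:**
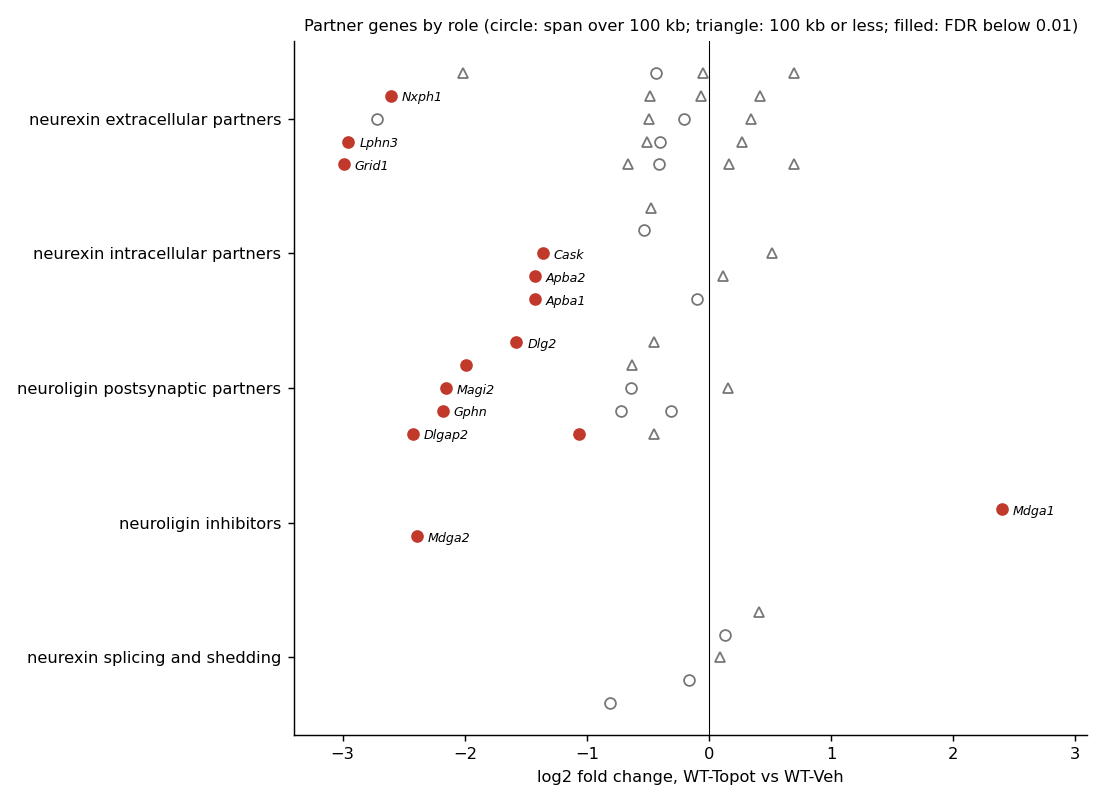
Log2 fold change in WT-Topot against WT-Veh (x axis) of 49 partner genes in 5 roles (y axis, spread for legibility), as circles for genes over 100 kb and triangles for shorter genes, filled where FDR was below 0.01. All filled points are circles, and Mdga1 at 2.40 is the filled point above 0.

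In Top1 cKO-Veh against WT-Veh cultures 1 of 49 partners fell and 0 rose, where 0.126% of all genes were called lower and 0.046% higher (12 and 5 with the block, where 2.95% and 2.6% were). It was Dlg2, which encodes the scaffold PSD-93 and spans 1945 kb, with a log2 fold change of -1.19 ± 0.183, from 968 ± 130.5 to 425 ± 81.9 CPM (edgeR adjusted p = 0.00694). In WT-Topot it fell by 1.58 ± 0.187 (edgeR adjusted p = 1.59e-05). The count of lower partners was 0 without replicate 2 of either group, 0 among genes kept by the filter, and 2 without WT-Veh replicate 3 or by DESeq2. For topotecan after deletion 0 of 49 were called (8 lower and 1 higher with the block, where 1.74% and 0.858% of all genes were, and 3 lower by DESeq2), and the count of lower partners was 1 without Top1 cKO-Veh replicate 1 and 4 without replicate 3. Medians were -0.15 and -0.06, each against 0 over all genes.

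In Top1 cKO-Topot against WT-Topot, 10 of 49 partners were higher and 3 lower, where 1.46% and 1.03% of all genes were (17 and 4 with the block, where 4.6% and 4.08% were). The higher genes included Grid1 (2.03 ± 0.348), Dlgap2 (1.52 ± 0.297) and Cask (1.20 ± 0.217), and the 3 lower were Mdga1, Lrrtm1 (-1.12 ± 0.175) and the secreted neurexin ligand Cbln1 (-1.58 ± 0.229), with edgeR adjusted p of at most 0.00226 for these. Lrrtm1 and Cbln1 were chosen after their values were seen. The number higher was 4 without WT-Topot replicate 1, 6 without Top1 cKO-Topot replicate 2 and 5 in a fit on all 12 libraries. The interaction was called for 2 of 49 partners, Grid1 (2.64 ± 0.395, edgeR adjusted p = 0.00121) and Apba1 (1.36 ± 0.225, edgeR adjusted p = 0.00330), where 0.398% of all genes were called higher and 0.0377% lower, and with the block for 19 higher and 2 lower, where 2.44% and 1.53% were. DESeq2 called 8 higher. It was called higher for 4 partners without WT-Veh replicate 1 or WT-Topot replicate 2, and for 1 without WT-Topot replicate 1 or Top1 cKO-Topot replicate 1, and lower for 1 without WT-Veh replicate 2.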

How the data were processed

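RNA-seq libraries of 12 cultures were analysed, 3 per group, with groups and replicate numbers from the sample labels. After TagDust filtering, the authors aligned the paired-end reads by TopHat to the mm9 genome and removed rRNA reads, and they deposited raw counts over RefSeq exons by gene symbol, without normalization. The counting program, strand setting and RefSeq release are not given in the sources used here, so reads of overlapping genes may be shared. Whether replicates were separate litters, days or batches is not stated, so p-values measure only the spread between these samples, which may be technical.

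From the deposited counts, each pair of groups was tested on its 6 libraries with edgeR 4.0.16 in R 4.3.3 (TMM scaling, quasi-likelihood test, no filter, Benjamini-Hochberg adjustment over 23893 genes, FDR 0.01), and the interaction on all 12. CPM values use TMM-adjusted library sizes, and intervals are 95% intervals of the fit. Within groups, libraries differed beyond sampling noise, with dispersion indices of 6.44 to 10.9 over 12 pairs. Same-numbered libraries deviated together from their group means, with r = 0.26 to 0.48 over 18 pairs across 13720 genes. Over 36 pairs of different numbers r was -0.38 to -0.05. Deviations within a group cancel out, so these negative values follow in part from the positive ones. The numbers were taken to pair the cultures, and values with the replicate number as a block are given where they change a call. Blocked p-values lean on a spread estimated over all genes, not on the spread of each gene alone. Alternatives were the block, filterByExpr, DESeq2-type size factors, DESeq2 1.42.0, a fit on 12 libraries, leaving out each replicate, and for levels raw library sizes and the longest transcript. Spans are from GENCODE vM1 (21013 symbols matched directly, 1046 by synonym, 1834 unmatched), promoter windows from RefSeq. The test of WT-Topot against WT-Veh, without the block, was also run on simulated counts with known changes.

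Named genes were every member, per role the up to 3 called partners with the largest change in WT-Topot, partners called in Top1 cKO-Veh against WT-Veh or in topotecan against vehicle after deletion, and the 3 closest profiles per member. Lrrtm1, Dlg4, Khdrbs3 and Cbln1 were named after their values were seen. The members and lists were chosen with earlier results of these data known. An item of the partner list is not reported here by name.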

Additional observations from a re-analysis of the deposited data

Results flagged for a closer look

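The response to topotecan was compared between WT and Top1 cKO cultures by edgeR's test of the interaction. Without the block it differed in 1 of 5 members and 2 of 49 partners, where 0.398% of all genes were called higher. With the block, 2 members and 19 partners were called higher and 2 partners lower, where 2.44% and 1.53% of all genes were. Higher calls were more frequent among long genes. They numbered 25 of 177 genes over 500 kb (82 with the block). Of 1840 genes of 100 to 500 kb they numbered 42 (276 with the block). Nrxn3 had an interaction of 2.34 on the log2 scale, from -3.55 in WT to -1.21 in Top1 cKO cultures. Its partner Grid1 had 2.64, from -2.99 to -0.34, and the adaptor Apba1 had 1.36, from -1.43 to -0.06.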

How the results depend on the processing

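With 3 cultures a group, and Nrxn3 and Nlgn1 at 40 to 121 counts per WT-Topot library, moderate changes are estimated loosely. With the replicate block, Nrxn3 and Nlgn1 passed in Top1 cKO-Veh against WT-Veh (-1.02 and -1.25) and in topotecan against vehicle after deletion (-1.20 and -1.16), and Nlgn1 in the interaction (1.72). It changed no other member's call. DESeq2 made the same 5 calls (-1.04, -1.23, -1.21, -1.16 and 1.74). Under filterByExpr, Nlgn1 lost its call in WT-Topot against Top1 cKO-Veh (-1.65). Size factors and the fit on 12 libraries changed none of the members' calls. No alternative changed the call in WT-Topot against WT-Veh of the 12 partners named by rule. Lrrtm1, Dlg4 and Khdrbs3, named after their values were seen, were uncalled there without the block and passed with it. The cause of these changes was not tested.

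Leaving out each library in turn, values ranged, for Nrxn3, from -1.21 to -0.81 in Top1 cKO-Veh against WT-Veh and from -1.33 to -1.08 in Top1 cKO-Topot against Top1 cKO-Veh. For Nlgn1 they ranged from -1.35 to -1.05 and from -1.34 to -0.97 in these comparisons, from -2.10 to -1.40 in WT-Topot against Top1 cKO-Veh, and from 1.48 to 2.19 in the interaction. Uncalled values near 0 changed sign. For Nrxn2 they ranged from -0.032 to 0.25 in WT-Topot against WT-Veh, -0.22 to 0.017 in Top1 cKO-Topot against Top1 cKO-Veh, -0.11 to 0.14 in Top1 cKO-Topot against WT-Topot, -0.00024 to 0.29 in Top1 cKO-Topot against WT-Veh and -0.23 to 0.0014 in WT-Topot against Top1 cKO-Veh. For Nlgn2 they ranged from -0.19 to 0.10 in Top1 cKO-Topot against Top1 cKO-Veh, -0.18 to 0.11 in Top1 cKO-Topot against WT-Topot, -0.17 to 0.14 in WT-Topot against Top1 cKO-Veh and -0.031 to 0.30 in the interaction, and for Nlgn3 from -0.079 to 0.15 in WT-Topot against Top1 cKO-Veh.

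Over all alternatives, the genes called lower numbered 381 to 1195 in WT-Topot against WT-Veh (488 in the fit reported), 3 to 706 in Top1 cKO-Veh against WT-Veh (30), 0 to 415 in Top1 cKO-Topot against Top1 cKO-Veh (2), 192 to 961 in Top1 cKO-Topot against WT-Veh (289) and 173 to 1147 in WT-Topot against Top1 cKO-Veh (295). Those called higher numbered 232 to 1100 in Top1 cKO-Topot against WT-Topot (350) and 48 to 583 in the interaction (95), with the block highest in each.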
